A study of Mus musculus with 18 samples.

Results

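Chief cells are the zymogen-secreting cells at the base of the gastric glands of the stomach corpus. Here they were the 180 cells that the deposited annotation of dataset 2 placed in cluster 10, among 3993 annotated cells of that dataset, 3826 of them epithelial, and 4484 annotated cells in the whole series. Dataset 2 was made from gastric units of the corpus of 10-week-old male C57BL/6J wild-type mice, without a genetic change or treatment in any group, as 2 pools of 3 mice called K and T, each prepared by another operator and sorted as Hoechst33342-positive, ToPro3-negative single cells into 6 plates of 384 wells. Pool K gave 73 chief cells and pool T gave 107. Dataset 1 came from corpus and antrum of further mice of the same strain, age and sex, as 2 tubes of 3 mice each on 3 plates. By the study's methods its cells were dissociated with the enzymes in another order and sorted without the Hoechst stain that removed debris from dataset 2, with propidium iodide as the dead-cell dye where the labels name ToPro3. RNA was measured by Quartz-Seq2, a plate-based single-cell method that counts unique molecular identifiers (UMIs) and reads the ends of the messenger RNAs. The chief cells held between 18745 and 78187 UMIs each, with a median of 34844.5. All 12 plates carried the same set of 384 well barcodes, as the method prescribes, so cells were told apart by plate and well.

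Chief cells make and store digestive proenzymes, above all pepsinogen, in large granules that are released on hormonal and neural signals, and in the mouse they also secrete gastric intrinsic factor. To sustain this output they carry a dense rough endoplasmic reticulum (ER), whose size and granule maturation depend on the transcription factors XBP1 and MIST1 (the product of *Bhlha15*). In the mouse corpus they are held to arise from mucous neck cells, and reports differ on whether some of them act as reserve stem cells.

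The label of the cluster was set beside *Cblif* (gastric intrinsic factor), *Pgc* (pepsinogen C) and *Bhlha15*. The study made its clusters from these same counts and named them by known marker genes. High marker levels thus describe the label and are not an independent check. Per 10000 UMIs of a cell, the median of *Cblif* was 155 in cluster 10, 62.2 in neck cluster 12 and at most 1.17 in every other cluster. All 180 chief cells had a *Cblif* UMI, and their values ran from 0.722 to 463. The median of *Pgc* was 1843 in cluster 10 and 2147 in cluster 12, so *Pgc* did not separate these clusters. For *Bhlha15* the median was 2.0 in cluster 10 and 0 in each other cluster, and 99.4% of chief cells had a UMI. The mucous neck marker *Muc6* had a median of 0 in chief cells and 11.7 in cluster 12. Defining markers of cells outside the epithelium and of tuft cells were at or near 0. *Ptprc* of leukocytes, *Pecam1* of endothelium and *Dclk1* and *Pou2f3* of tuft cells had no UMI, and the summed stromal and endothelial list did not exceed 0.408 per 10000 in any chief cell. The summed pit cell list was not low, with medians of 193 and 206 per 10000 in pools K and T against 164 in isthmus, 131 in parietal, 40.7 in neck and 1839 in mature pit cells. It contains *Psca*, whose median in chief cells was 177 per 10000. *Atp4a*, the proton pump of parietal cells, had a UMI in 98.9% of chief cells at a median of 2.57 per 10000, against a median of 204 in parietal cells and 1.30 in neck cluster 12, where 86.7% of cells had one (median depth 34844.5, 47647 and 20520 UMIs). No chief cell reached the 5th percentile of parietal cells for *Atp4a* and *Atp4b* together, 9 reached that of mature pit cells for *Gkn2* and *Muc5ac*, and 5 reached that of the neck clusters other than 12 for *Muc6*. These cells were kept. The 3 limits lay at unlike heights. They were 116 and 84.6 per 10000 for *Atp4a* and *Atp4b*, 5.89 and 0.539 for *Gkn2* and *Muc5ac*, and 1.32 for *Muc6*. The 95th percentile of *Gkn2* in parietal cells, 7.47, lay above the pit limit for that gene. The counts of 0, 9 and 5 can thus not be set against each other.

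A few secreted proteins took up much of the messenger RNA of chief cells. *Pgc*, *Clps* and *Pla2g1b* together held 43.2% of the chief UMIs of pool K and 42.9% of those of pool T. In the other epithelial types the 3 most abundant genes took between 7.37% and 16.9%. *Pgc* alone took 18.1% and 17.7% of chief UMIs in pools K and T. *Clps*, which encodes colipase, the cofactor of lipase, took 13.2% and 13.1%. *Pla2g1b*, which encodes a secreted phospholipase A2 best known from the pancreas, took 11.98% and 12.08%. The next were *Chia1* (acidic mammalian chitinase) with 1.78% and 2.38%, *Psca* with 1.78% and 1.83%, and *Cblif* with 1.54% and 1.47%. The pools thus held nearly the same shares of all these genes but *Chia1*. Mitochondrial genes took 3.73% and 3.47% in chief cells and 19.5% and 18.1% in parietal cells. *Pla2g1b*, *Psca*, *Furin*, *Spp1* and the pancreatic genes listed further on were chosen for description after their values were seen.

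**Figure D1:**
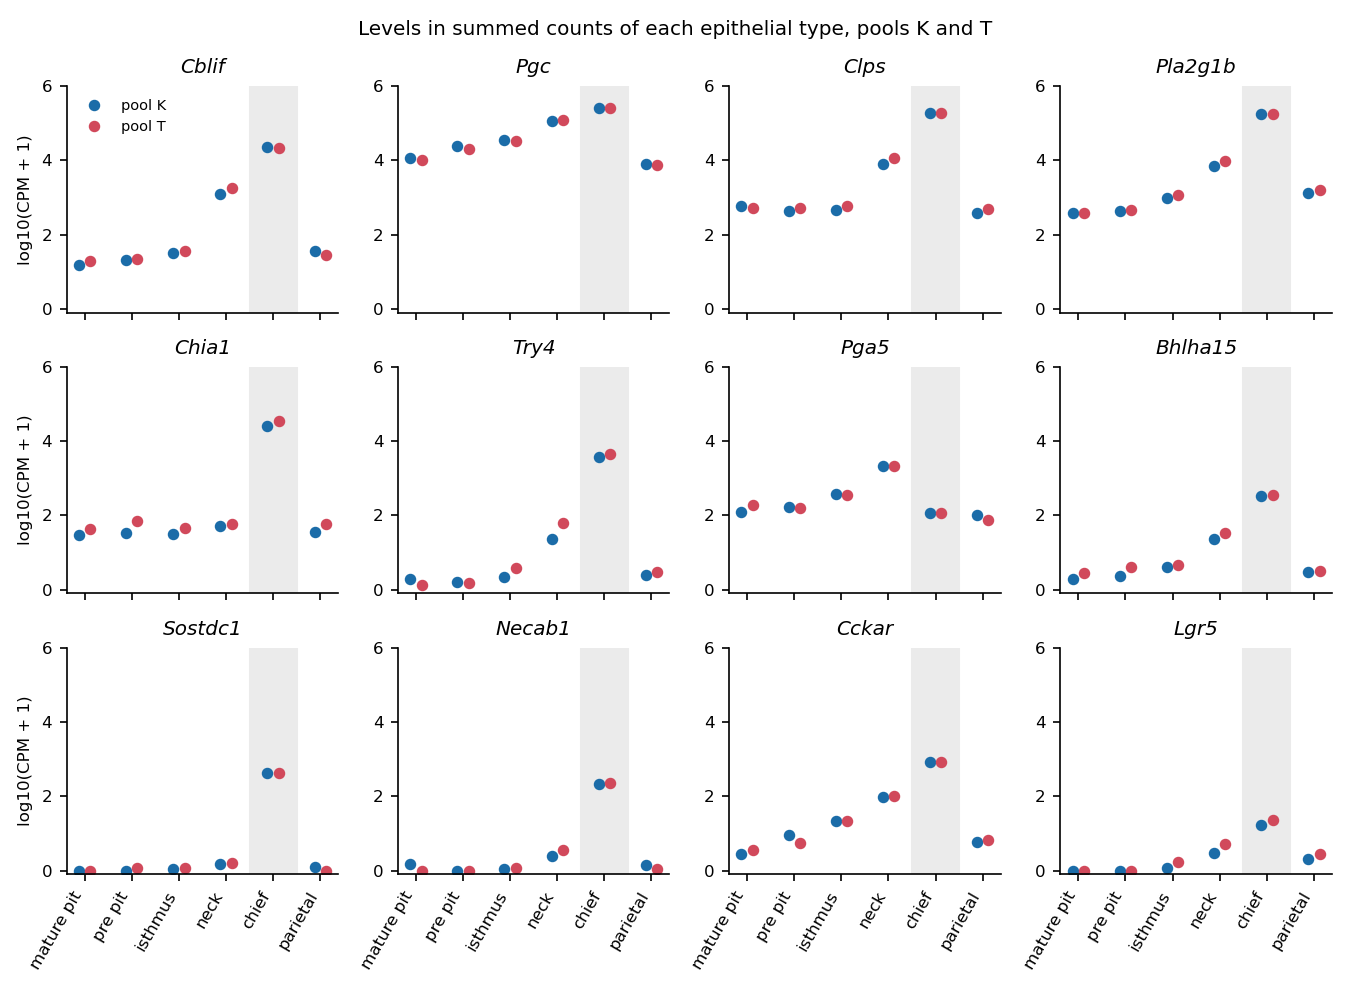
Levels of 12 genes in the summed UMI counts of each epithelial type, as log10 of TMM-scaled CPM plus 1, with pool K in blue and pool T in red (1 point per type and pool, chief cells shaded). For *Chia1* the chief values of 25882 and 35085 stand far above the neck values of 49.8 and 58.1, while *Pgc* is high in neck cells too and *Pga5* is lower in chief than in neck cells.

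To compare levels with the other types, the UMIs of all cells of a type were added up within each pool and expressed as CPM (counts scaled to a common library size, with TMM normalization). TMM scaling assumes that most genes are level between types, and since few genes fill the chief libraries, it raises chief values above their plain share of UMIs. The comparison was with the mean of mature pit, pre-pit, isthmus, neck and parietal cells, and a gene was said to be higher or lower where the fitted log2 fold change reached 1 and each pool alone also gave a difference of at least 1. The clusters were made from these same counts, so these fold changes are a description and no test was made. By this rule 1559 of 13894 genes were higher in chief cells (11.2%) and 1596 were lower (11.5%), 22.7% in all.

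Of 16 secreted enzymes and related proteins listed for chief cells, 11 could be fitted, of which 7 were higher and 3 lower, with a median log2 fold change of 3.88 against -0.06 over all genes. *Cblif* (chr19:11724918-11740811, plus strand, GRCm39) was 22346 CPM in pool K and 21680 CPM in pool T, and 1207 and 1794 CPM in neck cells, the next highest type. Its log2 fold change over the mean of the other types was 8.62 ± 0.12 (SE). *Clps* (chr17:28777123-28787857, minus strand) was at 191198 and 193059 CPM, with 8039 and 11272 CPM in neck cells and a log2 fold change of 7.76 ± 0.11. For *Pla2g1b* (chr5:115603154-115612783, plus strand) the chief levels were 173850 and 178143 CPM, the neck levels 7143 and 9350 CPM, and the log2 fold change 7.24 ± 0.09. In all 3 genes both chief pools lay above every other type, and the mean chief level was 14.7, 19.9 and 21.3 times that of neck cells. *Pgc* (chr17:48037760-48045407, plus strand) was at 262029 and 261040 CPM, only 2.20 times its neck level, with a log2 fold change of 3.46 ± 0.07.

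The lipase-related genes *Pnliprp1* and *Pnliprp2* were also high. *Pnliprp1* was 376 CPM in both chief pools and 4.61 and 7.65 CPM in neck cells. *Pnliprp2* reached 2013 and 1865 CPM in chief cells, and 248 and 292 CPM in neck cells. *Amy1*, a salivary-type amylase, also counted as higher than the mean of the other types, of which 1 had no UMI, yet its chief levels of 8.95 and 13.1 CPM were far under the parietal levels of 81.5 and 79.9 CPM.

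Of the pepsinogens, *Pgc* and *Pga5* (pepsinogen A) went opposite ways. *Pga5* (chr19:10646320-10655435, minus strand) was 117 CPM in pool K and 112 CPM in pool T of the chief cells. In neck cells it was 2127 and 2196 CPM, so chief cells held 0.0531 times the neck level, and the log2 fold change over the mean of all other types was -1.29 ± 0.16. Per cell the median of *Pga5* was 0 per 10000 UMIs in chief cells, 22.9 in neck cluster 12 and 38.7 in neck cluster 7. The ribonuclease genes *Rnase4* and *Ang*, whose loci overlap on chromosome 14 so that their reads cannot be told apart with certainty, were at 3.85 CPM or less in chief cells and highest in mature pit cells, where *Rnase4* had 45.9 and 147 CPM. *Cym* (chymosin) had 6 and 2 chief UMIs in pools K and T and did not pass the rule. *Lipf* (gastric lipase), *Dnase1*, *Cpb1*, *Ctrb1* and *Prss2* did not pass the filter on low counts.

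Other genes better known from the acinar cells of the pancreas were found at unequal levels. *Try4* was at 3669 and 4596 CPM in chief cells and at 22.2 and 59.6 CPM in neck cells. A *Try4* UMI was found in 97.8% of chief cells, 47.4% of cluster 12 and 12.4% of the other neck cells. *Try10* was at 1473 and 1758 CPM in chief cells, against 1.97 and 1.99 CPM in neck cells, a ratio of 817. By contrast, the 180 chief cells held 0 UMIs of *Cpa1*, *Ctrb1*, *Amy2a5* and *Amy2b*, 1 of *Cpb1*, 3 of *Cela3b*, 5 of *Pnlip*, 6 of *Cel*, 8 of *Prss2*, 16 of *Cela2a* and 20 of *Prss1*, among 6425681 UMIs in all. *Cela1* (elastase) had 37 UMIs in chief cells and 857 in the 173 cells of neck cluster 12. *Try4*, *Try5* and *Try10* lie in 1 cluster of trypsinogen genes on chromosome 6 (*Try4* at chr6:41279200-41282466 and *Try10* at chr6:41331039-41334872, both on the plus strand). Their Gencode messenger RNAs match at 97.0% of aligned bases between *Try4* and *Try5*, 94.4% between *Try4* and *Try10* and 93.9% between *Try4* and *Prss1*, so the division of reads among them is uncertain.

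The 12 genes with the highest fold changes were led by *Try10*, *Sostdc1*, *Mug1* and *Try4*. *Sostdc1*, a secreted antagonist of BMP and WNT ligands, was at 410 CPM in pool K and 425 CPM in pool T. Its highest other type, neck cells, had 0.505 and 0.602 CPM, a ratio of 754. *Mug1*, which encodes a protease inhibitor related to alpha-2-macroglobulin, was at 87.2 and 103 CPM. No sum of another type held more than 3 UMIs of *Mug1*, so chief cells were at least 64.0-fold higher than each, taken against 3 UMIs per summed library. On the same basis the solute carriers *Slc5a8* (22.4 and 14.6 CPM) and *Slc24a3* (14.0 and 15.0 CPM) were at least 13.7-fold and 10.3-fold higher, and *Ranbp3l* (31.9 and 32.0 CPM) at least 23.4-fold. *Necab1*, a calcium-binding protein gene, was at 210 and 220 CPM with 1.52 and 2.59 CPM in neck cells. *Creg2* was at 38.0 and 44.3 CPM and the laminin gene *Lama4* at 29.6 and 22.7 CPM, with ratios of 205 and 128 to neck cells. *Ighg1*, an immunoglobulin heavy chain gene, was at 6.15 and 7.32 CPM, at least 4.51-fold above the others. The source of these UMIs was not tested.

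*Chia1* (chr3:106020545-106039436, plus strand) was the most abundant of these 12 genes. It was at 25882 CPM in pool K and 35085 CPM in pool T of the chief cells, 565 times the neck level of 49.8 and 58.1 CPM, with a log2 fold change of 9.43 ± 0.20. *Furin*, a protease that cleaves proproteins in the late secretory pathway, was at 9772 and 11170 CPM in chief cells and 292 and 440 CPM in neck cells. *Psca*, listed here as a pit cell gene, was at 25906 and 26978 CPM in chief cells, above parietal cells with 11312 and 11731 CPM. Of the 8 genes that were lowest in chief cells by fold, *AB124611*, *St6gal2*, *Eva1c*, *Acot1*, *S100a10*, *Nr1h4*, *Atoh8* and *Epdr1*, none had a chief UMI in either pool. Taken against 3 UMIs per chief sum, chief cells were at least 9.87-fold below isthmus cells for *AB124611* and at least 7.04-fold below mature pit cells for the bile acid receptor gene *Nr1h4*, and the bounds of the other 6 ran from 3.52 to 7.85.

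The lists of the early secretory pathway had more genes higher than lower in chief cells, although most members of the ER entry and ER to Golgi lists did not pass the rule. Of all genes, 11.2% were higher and 11.5% lower. The *Mist1* list, with 8 genes reported to act with or under this factor, had 7 higher, 0 lower and a median log2 fold change of 3.04. *Bhlha15* itself (chr5:144127086-144131259, plus strand) was at 334 and 355 CPM in chief cells and 21.8 and 32.0 CPM in neck cells, with a log2 fold change of 6.59 ± 0.13. *Xbp1* was at 2185 and 2091 CPM against 902.5 and 924.3 CPM in neck cells. *Copz2*, a coatomer subunit of Golgi vesicles, was at 340 and 300 CPM against 72.7 and 78.7 CPM. The granule GTPase gene *Rab26* was higher at low levels, 6.71 and 3.47 CPM, and *Rab3d* was only 1.48 times its level in mature pit cells. *Atp2c2*, the remaining member, had 2 chief UMIs among the cells of K and 0 among those of T.

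Entry into the ER (signal recognition, the translocon, signal peptidase and N-glycosylation) had 14 of 35 genes higher and 0 lower, with a median log2 fold change of 1.00. The shares over all genes were 11.2% and 11.5%. *Ssr4*, a subunit of the translocon-associated complex, was at 1726 and 1676 CPM in chief cells and at 356 and 401 CPM in neck cells. *Spcs3*, a subunit of signal peptidase, was at 486 and 441 CPM, 3.05 times its highest other level. ER folding and the unfolded protein response had 29 of 45 fitted genes higher, 1 lower (*Ero1a*) and a median of 1.37. *Pdia2*, a disulfide isomerase, was at 8826 and 8968 CPM in chief cells and at 950 and 933 CPM in parietal cells, with a log2 fold change of 5.92 ± 0.06. *Derl3*, which helps to retrotranslocate misfolded proteins, was at 291 and 198 CPM, and the ER oxidase gene *Ero1b* at 582 and 451 CPM. These were 17.9 and 17.8 times the neck levels. The main ER chaperone gene *Hspa5* was at 4888 and 3623 CPM against 1446 and 1652 CPM in neck cells. Transport from ER to Golgi had 16 of 45 genes higher and 0 lower, with a median of 0.80, led by the cargo receptor gene *Tmed6* at 3797 and 4214 CPM, 25.6 times its neck level. Amino acid supply, the list of tRNA synthetases, biosynthetic enzymes and transporters, had 10 of 29 higher and 1 lower. Its higher genes included *Asns* (asparagine synthetase; 952 and 848 CPM, 3.61 times neck), *Phgdh* (the first step of serine synthesis; 116 and 125 CPM, 5.51 times isthmus) and the amino acid transporter gene *Slc38a5* (149 and 163 CPM, 13.3 times neck).

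The machinery of granule release did not follow as a group. Of 25 fitted genes of regulated exocytosis 5 were higher, 5 were lower and the median log2 fold change was -0.29. Among all genes 11.2% were higher and 11.5% lower. *Syt7*, a calcium sensor of exocytosis, was at 181 and 201 CPM in chief cells and at 43.7 and 50.3 CPM in parietal cells. *Sytl2*, a RAB27 effector, was at 2.80 and 8.47 CPM in chief cells and at 327 and 340 CPM in mature pit cells.

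**Figure D2:**
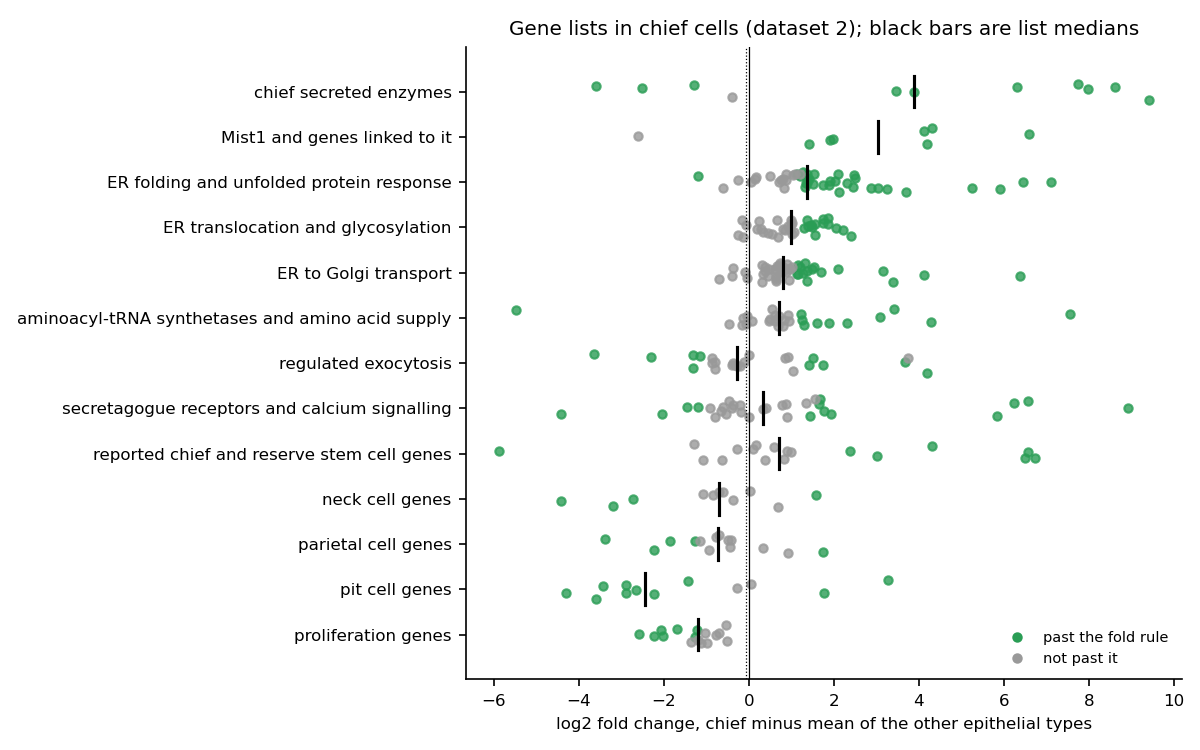
Log2 fold change of chief cells over the mean of the other epithelial types in dataset 2 for the fitted members of 13 gene lists; each point is a gene, green where it passed the fold rule, and black bars are list medians. The ER folding list has its median at 1.37 with 29 of 45 genes higher, whereas regulated exocytosis is centred at -0.29 and proliferation at -1.20. Over all genes 11.2% were higher.

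Receptors for secretory signals were high for particular ligands. Of 31 fitted genes of this list 9 were higher and 4 lower, with a median of 0.34, beside 11.2% and 11.5% of all genes. *Cckar*, the receptor for cholecystokinin, was at 813 and 827 CPM in chief cells, 93.2 and 98.9 CPM in neck cells, and had a UMI in all 180 chief cells. *Gper1*, a G protein-coupled estrogen receptor, was at 445 and 550 CPM, 11.6 times its neck level. Neck cluster 12 shared both genes, with a *Cckar* UMI in 94.8% and a *Gper1* UMI in 81.5% of its cells. Scaled for depth as above, the per-cell median of *Cckar* was 5.43 in chief cells and 2.84 in cluster 12. For *Gper1* these medians were 3.27 and 1.41. Both genes passed the fold rule as higher in chief cells than in cluster 12. *Ptger3*, a prostaglandin E2 receptor, was at 52.0 and 55.5 CPM against 15.0 and 12.3 CPM in parietal cells. *Nupr1*, a stress-response regulator placed on this list, was at 4259 and 4444 CPM, 43.4 times its neck level. The muscarinic receptors were low and did not pass the rule in dataset 2. *Chrm1* had 4.47 and 11.6 CPM and *Chrm3* 3.35 and 5.39 CPM. *Cckbr*, the gastrin receptor, had 13.4 and 11.6 CPM, below parietal cells with 26.6 and 16.9 CPM. The histamine receptor gene *Hrh2* had 1 UMI in pool K and 2 in pool T and lay at least 79.4-fold under its parietal level of 133 and 135 CPM.

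Of the 18 genes reported for chief or reserve stem cells, 6 were higher, 1 was lower and the median was 0.70. Among all genes the shares higher and lower were 11.2% and 11.5%. *Lgr5*, a WNT target and stem cell gene of several epithelia, was at 16.2 and 22.0 CPM in chief cells and 1.91 and 4.095 CPM in neck cells as a whole. It had a UMI in 25.6% of chief cells, 13.9% of cluster 12, 1.86% of the other neck cells and 4.70% of parietal cells, whose median depth of 47647 UMIs was the highest. After each cell was thinned to 15000 UMIs the shares were 16.1%, 13.6%, 1.28% and 1.73%, with 180, 147, 1016 and 694 cells deep enough. *Cdkn1c* (the cell cycle inhibitor p57) was at 661 and 845 CPM against 48.5 and 72.9 CPM in neck cells. *Tnfrsf19* and *Axin2* were higher at 11.2 and 20.8 CPM and at 7.83 and 12.3 CPM. *Sox9* was not called, with 183 and 197 CPM against 498 and 522 CPM in neck cells, and *Gprc5b*, the lower one, had no chief UMI, which put chief cells at least 3.21-fold below neck cells. Chief cells were assigned to G1 phase in 100% and 98.1% of cells of pools K and T, and of 16 proliferation genes 0 were higher and 7 lower.

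Of 42 fitted transcription factors on the list 4 were higher, *Bhlha15* and *Xbp1* among them, and 11 lower, beside 11.2% and 11.5% of all genes. In dataset 1, described further on, 11 of 39 passed as higher and 10 as lower, beside 15.5% and 14.1% of all genes there. *Id1* and *Id3*, targets of BMP signalling, were at 10.1 and 29.3 CPM and at 27.95 and 30.81 CPM in chief cells, and above 500 CPM in mature pit cells in both pools. Genes of pit cells were mostly lower, 8 of 12, with *Psca* and *Sctr* (the secretin receptor) as the 2 higher ones. Of 14 parietal genes 4 were lower and 1 higher, and of 11 fitted neck genes 3 were lower and 1 higher. Among 4 fitted endocrine genes 3 were higher, namely *Hdc*, *Chga* and *Sst*. The summed level of all 6 genes of the list, which include *Ghrl*, had a median of 0.675 and 0.698 per 10000 UMIs in pools K and T. In the other types this median was 0.303 to 0.449. The sum reached 148 in a single cell of pool K, which held nearly all of it as *Ghrl* (147). Of 14 genes of the early response that tissue dissociation can induce, 8 were higher than the mean of the other types and 0 lower, although *Egr1* was only 1.08 times its neck level. Per cell the summed list was highest in isthmus cells, with medians of 7.22 and 21.9 per 10000 UMIs in chief cells of pools K and T, 42.8 in isthmus, 21.7 in neck, 15.2 in parietal, 8.86 in mature pit and 7.72 in pre-pit cells. The median of *Fos* was 0.516 per 10000 in chief cells, 5.31 in neck cells outside cluster 12 and 7.25 in isthmus cells. Of 10 heat shock genes 2 were higher and 1 lower, and *Hspa1b* was 1.19 times its neck level. The part of these groups in the other results was not tested.

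Neck cluster 12 had the next highest *Cblif* level after the chief cells. With sums per cluster and the same fold rule, 656 of 12922 genes were higher in chief cells (5.08%) and 770 lower (5.96%). *Pgc* did not pass the rule, with 296345 and 290901 CPM in chief cells and 208378 and 209177 CPM in cluster 12. Its direction depended on the scaling, since as a plain share of UMIs the median was 1843 per 10000 in chief cells and 2147 in cluster 12. *Cblif* was higher in chief cells by 1.37 ± 0.34 on the log2 scale, *Clps* by 1.93 ± 0.33 and *Pla2g1b* by 2.61 ± 0.20. A wider gap was seen for *Chia1* (8.24 ± 0.46), *Sostdc1* (8.03 ± 0.32), *Try10* (7.83 ± 0.29) and *Psca* (5.31 ± 0.26). *Bhlha15* was at 377 and 395 CPM in chief cells and 51.6 and 76.2 CPM in cluster 12, and 4 of 8 *Mist1* list genes were higher and 0 lower. Of 45 ER folding genes 18 were higher and 1 lower, of 34 ER entry genes 5 and 0, of 45 ER to Golgi genes 4 and 2, of 29 amino acid supply genes 8 and 1, and of 25 regulated exocytosis genes 3 and 2. Most members of each of these 5 lists thus did not pass against cluster 12. The 6 leading genes, *Slc27a2*, *Slc5a8*, *Bmp3*, *Banf2os*, *Adm2* and *Rasgrf1*, had no UMI in cluster 12. For *Slc27a2*, a fatty acid transporter and acyl-CoA synthetase gene, chief cells had 39.2 and 28.3 CPM, at least 13.9-fold more than 3 UMIs per summed library would give in cluster 12. For *Bmp3*, a BMP family ligand, they had 9.48 and 12.9 CPM and a bound of 6.07-fold.

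In the other direction the neck genes set cluster 12 apart, with 8 of 11 lower in chief cells, beside 5.96% of all genes. *Gkn3*, a gastrokine, was at 30.4 and 15.9 CPM in chief cells and at 1569 and 2256 CPM in cluster 12. *Muc6* was at 33.5 and 78.1 CPM against 1583 and 1849 CPM, and *Pga5* at 133 and 125 CPM against 2898 and 3778 CPM. *Aqp5*, a water channel gene of neck cells, was at 6.32 and 4.72 CPM against 110 and 208 CPM. *Sox9* and *Spdef*, transcription factors of mucous cells, had log2 fold changes of -1.54 ± 0.13 and -1.63 ± 0.17. *Cldn22*, *Acot1* and *Tmem213* had no chief UMI, and *Kcne3* and *Rassf10* had 1 each, in pool K and in pool T. *Lgr5* and *Axin2* did not pass the rule in this comparison, and *Lgr5* was at 18.3 and 24.5 CPM in chief cells and at 15.1 and 18.4 CPM in cluster 12. *Smoc2* was lower in chief cells, with 6.32 and 4.29 CPM against 62.5 and 91.1 CPM. Of the dissociation response genes 13 of 14 were higher in chief cells than in cluster 12, beside 5.08% of all genes, so these differ between the 2 clusters as well.

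Chief cells differed from each other most in a handful of genes. Among 107 genes with a mean of at least 5 per 10000 UMIs, the coefficient of variation between chief cells was highest for *Spp1* (osteopontin), at 3.04, followed by *Clu* at 2.27. Early response and heat shock genes (*Hspa1a*, *Hspa1b*, *Atf3*, *Egr1*) stood among the first 10. *Chia1* ranked 7 with 1.60, where counting alone would give 0.0362. Its level ran from 0 to 1273 per 10000 UMIs with a median of 10.1. At or above 100 per 10000 were 67 of 180 chief cells, 37.2% with an exact 95% interval from 30.1% to 44.7% that covers counting error only. Of 173 cells in neck cluster 12 none reached this level, which by the exact interval allows up to 2.11%, nor did any of the other neck, parietal, isthmus or pit cells.

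The cells with high *Chia1* were found on every plate. They made up from 14.3% to 55.6% of the chief cells of a plate in pool K and from 18.2% to 59.1% in pool T, so the pools overlapped. In all they were 31.5% of pool K and 41.1% of pool T. Per cell, *Chia1* had a Spearman rho of 0.05 with *Cblif* and 0.24 with total UMIs over the 180 chief cells, given as a description since cells of a pool share their mice. It was -0.30 with *Furin* (-0.18 in pool K and -0.43 in pool T), -0.27 with *Pgc* (-0.17 and -0.34) and 0.24 with *Bhlha15* (0.30 and 0.17). With *Atp4a* it was 0.22 (0.22 and 0.24) and with *Psca* 0.21 (0.08 and 0.30). It was between -0.15 and 0.05 with the other 7 genes looked at. Some of these 7 were not near 0 in each pool, with 0.25 and -0.01 for *Hspa5*, -0.12 and 0.19 for *Nupr1* and -0.26 and -0.15 for *Egr1*. All these levels are shares of the UMIs of a cell, so a high *Chia1* share, at most 1273 per 10000, lowers the shares of other genes. How much this moved the rho values was not tested. *Cblif* itself lay between 88.3 and 209 per 10000 between the 25th and the 75th percentile of chief cells, and *Pgc* between 1683 and 2012. *Spp1* had a UMI in 52.8% of chief cells, with a median of 0.241 per 10000 and a maximum of 434, against 65.3% of cluster 12 with a maximum of 199. In *Clu* (clusterin) the median of 8.60 and the 75th percentile of 14.7 were close, while the highest cell, in pool T, had 391.

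**Figure D3:**
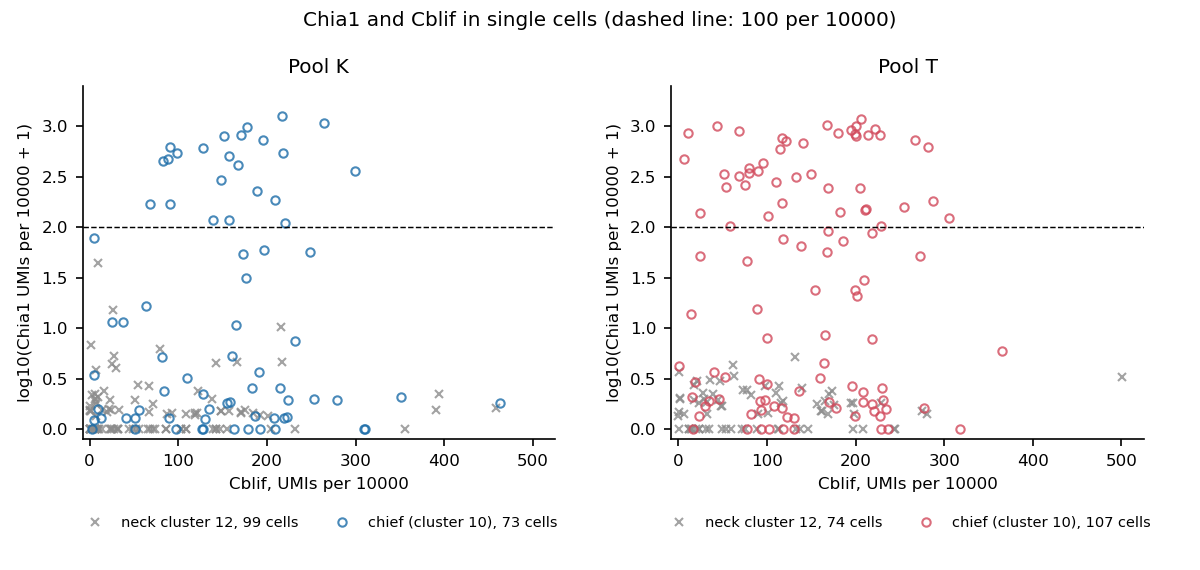
*Cblif* (x axis, UMIs per 10000) against *Chia1* (y axis, log10 of UMIs per 10000 plus 1) in single cells of pools K and T, with chief cells as circles and cells of neck cluster 12 as grey crosses. Chief cells with high and low *Chia1* are found across the range of *Cblif*, 23 of 73 in pool K and 44 of 107 in pool T lie at or above 100 per 10000 (dashed line), and no cell of cluster 12 does.

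Dataset 1 gave a comparison on separate mice. Chief-like cells were chosen there by a *Cblif* level at or above 13.8 and a *Muc6* level at or below 0.663 per 10000 UMIs, which are the 5th and 95th percentiles of the chief cells of dataset 2. This gave 19 cells, 9 in tube 1 and 10 in tube 2, of which 18 carried the chief cluster of that dataset. In dataset 2 itself the same limits held for 163 of 180 chief cells, 6 of 173 cells of cluster 12 and 1 of the other 3640. *Cblif* and *Muc6* are not reported from dataset 1. The sums of these cells were compared with mature pit, pre-pit, isthmus-like, neck and parietal sums of the corpus from the same tubes, with edgeR's quasi-likelihood test and Benjamini-Hochberg adjustment over 9966 genes. The test rests on 2 tubes of 3 mice and took types of a tube as separate samples. The other types were deposited clusters made from these same counts. The p-values below are thus not independent of how these groups were formed.

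At an adjusted p below 0.05, 1540 genes were higher in chief-like cells (15.5%) and 1409 lower (14.1%), 29.6% in all. Of the genes that were higher in dataset 2, 802 were tested in dataset 1 and 716 of these passed there in the same direction, which is 89.3% of them and 46.6% of the 1538 higher calls of dataset 1 among shared genes. None passed in the opposite direction. A gene near 0 in the other types enters this test only through the chief-like sums where it is high, and 37 of the 802 had over 3 UMIs in fewer than 2 sums of other types. All 37 passed, and of the other 765 genes 679 did (88.8%). Of the genes that were lower, 1129 were tested and 629 passed, 55.7% of them and 44.7% of the lower calls of dataset 1, and 7 passed in the opposite direction.

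The secreted proteins stood out in dataset 1 as well. *Chia1* was at 30028 CPM in tube 1 and 85237 CPM in tube 2, with 52.8 CPM on average in neck cells, and passed with a log2 fold change of 11.52 ± 0.28 (adjusted p = 1.04e-15, edgeR). *Try4* was at 3251 and 6720 CPM, with a log2 fold change of 11.89 ± 0.29 (adjusted p = 1.04e-15). *Pla2g1b* passed with 178210 and 180478 CPM (8.72 ± 0.25, adjusted p = 9.43e-15). *Clps* had 190796 and 187797 CPM (8.44 ± 0.29, adjusted p = 1.00e-13), and *Pgc* 234270 and 232119 CPM against 83972 CPM in neck cells (4.73 ± 0.16, adjusted p = 1.04e-13). *Bhlha15* rose to 544 and 372 CPM (7.13 ± 0.25, adjusted p = 1.26e-13). *Furin* and *Psca* passed too, by 7.78 ± 0.28 and 3.02 ± 0.13 on the log2 scale. *Pga5* did not, at 84.9 and 3.84 CPM in the tubes (-0.29 ± 0.61, adjusted p = 0.790), although neck cells had 1075 CPM.

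Of the leading genes of dataset 2, *Sostdc1* (290 and 311 CPM), *Mug1* (84.9 and 330 CPM), *Necab1* (205 and 131 CPM), *Creg2* (42.5 and 42.2 CPM), *Ranbp3l* (30.9 and 26.9 CPM), *Slc24a3* (19.3 and 38.4 CPM), *Lama4* (30.9 and 38.4 CPM) and *Try10* (764 and 2312 CPM) were also present in chief-like cells of both tubes of dataset 1. Each had over 3 UMIs in at most 1 sum of the other types there, so that their entry into the test rested on the chief-like sums and their passing it adds nothing. *Slc5a8* and *Ighg1* were not tested there. Of the lower ones only *Acot1* passed, with 0 CPM in both tubes and 46.3 CPM in neck cells (adjusted p = 0.0189).

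**Figure D4:**
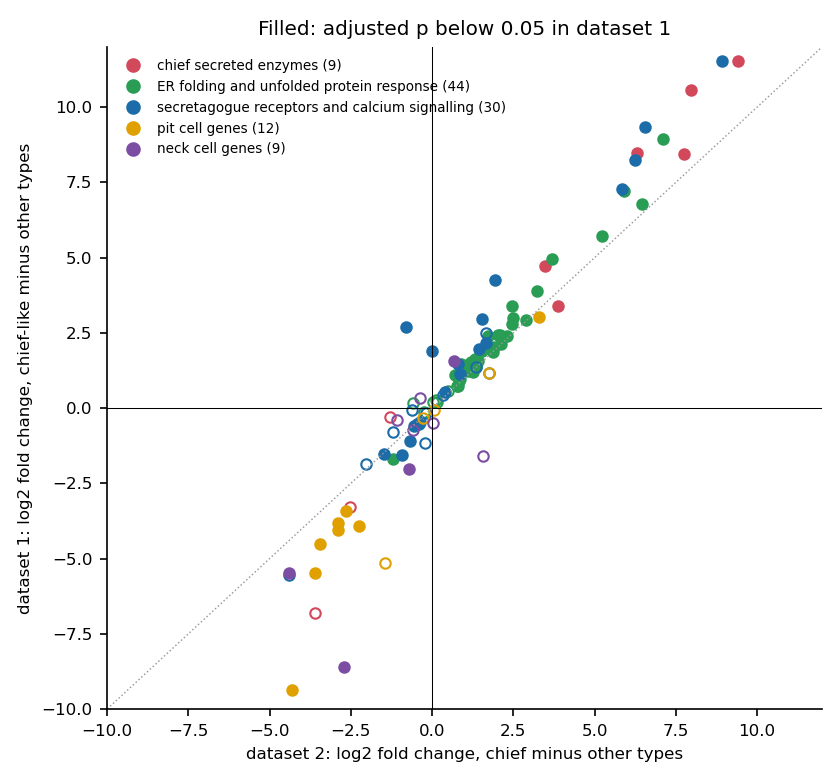
Log2 fold change of chief over other epithelial types in dataset 2 (x axis) and of chief-like over other corpus types in dataset 1 (y axis) for the genes of 5 lists tested in both, filled where the adjusted p in dataset 1 was below 0.05. *Chia1* lies at the top right with 9.43 and 11.52, and most ER folding genes are above 0 on both axes, 37 of 44 having passed in dataset 1. Over all genes 15.5% passed there as higher.

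For the lists, 37 of 44 ER folding genes passed as higher in dataset 1 and 1 as lower, and the same held for 29 and 0 of 34 ER entry genes, 36 and 0 of 45 ER to Golgi genes and 18 and 0 of 27 amino acid supply genes. Over all genes 15.5% passed as higher and 14.1% as lower. All 5 tested *Mist1* list genes were higher. Regulated exocytosis was again divided, with 6 higher and 7 lower of 21. *Cckar* (745 and 872 CPM), *Gper1* (448 and 591 CPM) and *Nupr1* (3552 and 7891 CPM) passed as higher. *Lgr5* passed against the mean of the other types, on few UMIs, at 11.6 and 38.4 CPM (4.44 ± 0.80, adjusted p = 0.000453, edgeR). Neck cells had 34.0 CPM of *Lgr5*, above the chief-like level of tube 1. Cells like cluster 12 were not told apart among these neck cells. *Chrm1* passed as well (2.97 ± 0.97, adjusted p = 0.0296), on 1 and 3 chief-like UMIs and below its neck level, with 3.86 and 11.5 CPM against 27.7 and 24.3 CPM. Of 14 dissociation response genes 12 were higher and 1 lower, and their part in the other results was not tested. *Atp4a* was higher than the mean of the other types as well, at 1301 and 637 CPM against 18704 CPM in parietal cells.

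The pools of dataset 2 differed in chief cells in ER genes and in early response genes, among others. Chief cells of the 12 plates were summed per plate and pool T was tested against pool K with edgeR's quasi-likelihood test, in which 23 of 4699 genes were higher in T (0.489%) and 35 lower (0.745%), 1.23% in all at an adjusted p below 0.05. Plates of a pool are technical replicates of the same 3 mice, so the p-values describe these 2 pools, whose mice and operators cannot be told apart. Among the lower genes were 10 of 41 tested ER folding genes, with 1 higher, and 2 each of 33 ER entry and 42 ER to Golgi genes. *Hsp90b1*, the ER paralogue of HSP90, was at 1094 to 2098 CPM in the plates of pool K with a median of 1318, and at 632 to 923 CPM in pool T with a median of 728. The pools did not overlap, and the log2 difference was -0.93 ± 0.13 (adjusted p = 0.000740). *Creld2*, a disulfide isomerase of the ER, had a median of 442 CPM (395 to 710) in K and 218 CPM (196 to 379) in T, again without overlap (-0.91 ± 0.16, adjusted p = 0.00489). For *Hyou1*, a large ER chaperone, the medians were 110 and 54.6 CPM, and the plates overlapped (-0.93 ± 0.19, adjusted p = 0.0149). *Calr* (calreticulin) had medians of 1504 and 1022 CPM without overlap (-0.64 ± 0.12, adjusted p = 0.00772). *Pdia4*, *Derl3*, *Dnajc3*, *Sdf2l1*, *Pdia6* and *Dnajb11* were the other lower members. *Hspa5* did not pass, with medians of 3503 and 2413 CPM (-0.46 ± 0.14, adjusted p = 0.0976).

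The 23 genes that were higher in pool T included early response and heat shock genes. Of 13 tested dissociation response genes 6 were higher in T and 0 lower, and of 9 heat shock genes 2 and 0. Over all genes tested 0.489% were higher and 0.745% lower. *Klf6*, an early response transcription factor, had plate medians of 78.2 CPM in K and 211 CPM in T, with overlap of the pools (1.32 ± 0.20, adjusted p = 0.00119). *Hspa1b*, an inducible HSP70, was at 135 to 799 CPM in K and 840 to 1986 CPM in T, without overlap (1.36 ± 0.24, adjusted p = 0.00580). *Myc* was at 7.05 to 19.9 CPM in K and 27.5 to 50.6 CPM in T (1.24 ± 0.24, adjusted p = 0.00972). *Dusp1* and *Ugdh* were also higher, the first with overlap of the pools and the second without. Summed over the dissociation response list, the median chief cell of pool K held 7.22 per 10000 UMIs and that of pool T 21.9, and cells of both pools ranged from about the same low level up to 293 and 305. The early response thus moved with the pool beside the ER genes, and its part in their difference was not tested. *Neat1*, a nuclear noncoding RNA, was lower in T (medians of 691 and 317 CPM, -1.20 ± 0.15, adjusted p = 0.000208), as were *Slc17a9* (52.5 and 26.1 CPM) and *Klk1* (97.0 and 33.6 CPM). With each of the 12 plates left out in turn, *Hsp90b1*, *Neat1*, *Slc17a9*, *Klf6*, *Hspa1b* and *Myc* passed every time, *Hyou1* 10 times, *Dusp1* 7 times and *Klk1* 5 times, and *Ugdh* passed in 2 of the 8 fits in which it was tested. The highest adjusted p of these 4 genes was 0.0564, 0.0849, 0.130 and 0.0849, without plate 5 of pool K for *Klk1* and without plate 6 of pool K for the others. The 7 secreted proteins tested did not pass in either direction, and *Chia1* had medians of 18132 and 23043 CPM (0.42 ± 0.35, adjusted p = 0.692).

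Whether this pool difference went beyond that of the other types was tested as an interaction over sums per type and plate, with the plate as a block. In 36 of 10972 genes the difference T minus K was lower in chief cells than in the mean of the other types (0.328%) and in 13 it was higher (0.118%), 0.447% in all. Of the 123 tested genes on the 3 ER and Golgi lists, 19 were among the lower ones (15.4%) and 0 among the higher. *Hsp90b1* had a difference of -0.88 on the log2 scale in chief cells, where the other types lay between -0.26 and 0.25 (interaction -0.83 ± 0.09, adjusted p = 5.21e-09). *Calr* had -0.61 in chief cells and -0.17 to 0.15 elsewhere (-0.61 ± 0.08, adjusted p = 1.80e-06). *Hspa5* had -0.42 in chief cells and -0.14 to 0.17 elsewhere (-0.50 ± 0.10, adjusted p = 0.00125). In *Creld2* and *Hyou1* the interaction was -0.79 ± 0.14 (adjusted p = 0.000463) and -0.81 ± 0.18 (adjusted p = 0.0147). *Neat1*, *Slc17a9* and *Ttll7* were lower too. Of the dissociation response and heat shock genes, 0 passed in either direction. *Klf6* was 1.39 higher in T in chief cells and 1.55 higher in neck cells, and *Hspa1b* 1.54 and 1.38 higher. *Cyp4f16*, *Ugdh*, *Smpd3*, *Clu* and *Slc25a35* were the leading genes in the higher direction, and *Car2* (carbonic anhydrase 2) was higher as well (0.56 ± 0.10, adjusted p = 0.000463). With each plate left out in turn, *Hsp90b1* and *Neat1* passed 12 of 12 times, *Hyou1* 10 and *Slc17a9* 9, while *Ttll7* and *Ugdh* passed 5 times, *Smpd3* and *Clu* 3 and *Cyp4f16* and *Slc25a35* 2.

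**Figure D5:**
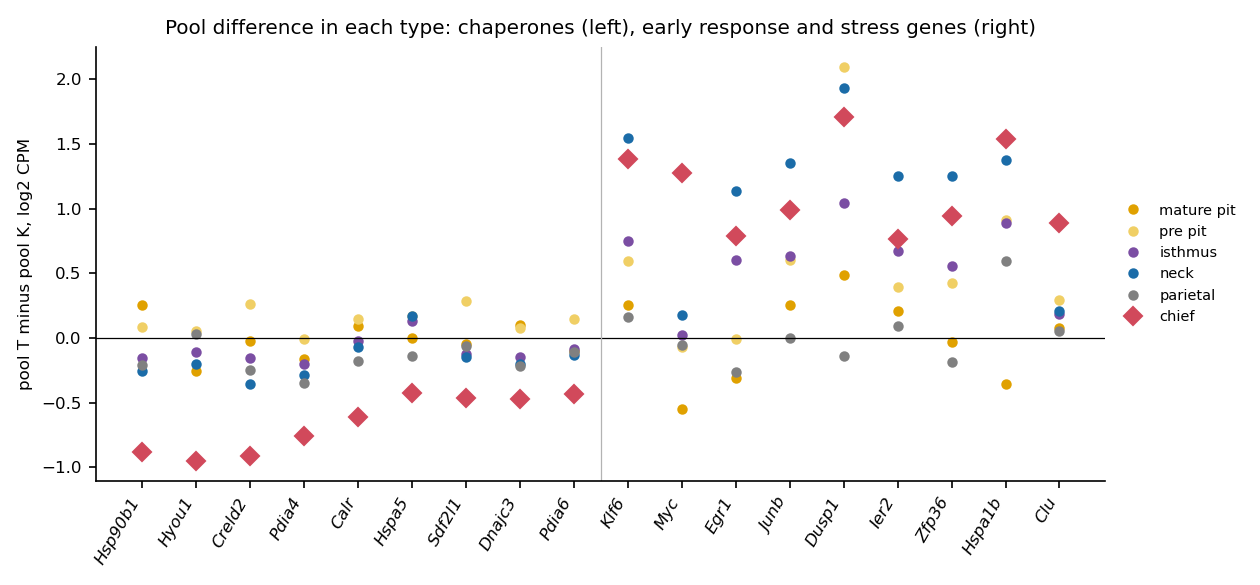
Difference of pool T minus pool K in log2 CPM for 9 ER chaperone genes (left of the line) and 9 early response and stress genes (right) in each epithelial type, with chief cells as red diamonds. The 9 chaperone genes were taken from the 11 ER folding genes with a lower interaction, so the low place of chief cells follows from that choice. The other 33 of 44 tested ER folding genes did not pass. *Hsp90b1* is at -0.88 in chief cells with the other types between -0.26 and 0.25, while for *Klf6* chief cells at 1.39 and neck cells at 1.55 lie together.

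The promoters of some of these genes are shown because they share a sequence. The ER stress element, bound by ATF6 and NF-Y, reads CCAAT and CCACG with any 9 bases between them, or CGTGG and ATTGG with any 9 bases between on the other strand. Both were searched in the 250 bases before the RefSeq start (GRCm38.p6 table, placed by their single exact match in GRCm39). Either was found in 33 of 27025 promoters (0.122%) and in 14 of 8669 genes matched among those tested for the interaction (0.162%). Of the 36 genes with a lower interaction 29 were matched and 6 held the element (20.7%), namely *Calr*, *Creld2*, *Dnajc3*, *Hsp90b1*, *Hspa5* and *Pdia6*. All 6 are on the ER folding list, of whose 41 matched genes 10 held it (24.4%). The share among the genes with a lower interaction was thus not above that of the list they come from. *Pdia4* and *Sdf2l1*, which also had a lower interaction, held no element. No gene with a higher interaction held it, of 7 matched. The elements of these 6 genes follow, with those of *Derl3* and *Ero1b*, which were high in chief cells but not among the genes with a lower interaction. They are given with the bases on either side, 5′ to 3′ on the strand of the gene, with the fixed letters in capitals.
Hspa5 (chr2:34662017-34662075, plus): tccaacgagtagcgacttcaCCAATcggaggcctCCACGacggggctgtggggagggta
Hsp90b1, distal (chr10:86541482-86541540, minus): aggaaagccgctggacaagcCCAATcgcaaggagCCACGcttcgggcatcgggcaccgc
Hsp90b1, proximal (chr10:86541377-86541435, minus): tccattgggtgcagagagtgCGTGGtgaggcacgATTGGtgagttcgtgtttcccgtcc
Creld2 (chr15:88703703-88703761, plus): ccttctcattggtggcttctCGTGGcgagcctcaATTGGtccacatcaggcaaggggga
Calr (chr8:85573684-85573742, minus): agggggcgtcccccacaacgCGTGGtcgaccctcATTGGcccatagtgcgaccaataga
Dnajc3 (chr14:119175219-119175277, plus): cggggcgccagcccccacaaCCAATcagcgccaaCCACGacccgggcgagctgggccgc
Pdia6 (chr12:17316472-17316530, plus): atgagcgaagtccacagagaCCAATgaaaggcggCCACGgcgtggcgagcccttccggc
Derl3 (chr10:75729056-75729114, plus): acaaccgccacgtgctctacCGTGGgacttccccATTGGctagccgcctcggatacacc
Ero1b (chr13:12580543-12580601, plus): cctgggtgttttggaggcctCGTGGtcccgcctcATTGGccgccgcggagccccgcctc
In *Hspa5* the element lies 65 to 47 bases before the start, and in *Hsp90b1* there are 2, at 212 to 194 and at 107 to 89 bases before it, on opposite strands. In the Gencode annotation the *Hspa5* gene starts at 34661982 and *Hsp90b1* ends at 86541446, so the *Hspa5* window and the proximal *Hsp90b1* window lie inside the annotated genes there. A match is a description of the letters and not a bound site. The E-box letters CAGCTG and CATATG, which MIST1 is known to bind, were found in 15.9% of all promoters and in 0 of 6 matched promoters of the *Mist1* list.

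The yield of chief cells was compared between pools and their RNA content with the other types. Chief cells made up 5.45% ± 1.56 (SD, n = 6 plates) of the epithelial cells in pool T and 3.88% ± 1.36 (SD, n = 6 plates) in pool K. The difference of 1.57 percentage points did not pass an exact two-sided permutation test over plates (p = 0.0887, where the smallest p possible is 0.00216). It passed when either of 2 plates was left out, at 2.03 points (p = 0.0346) without plate 5 of pool K and at 2.02 points (p = 0.0260) without plate 1 of pool T, by the same exact test. Within plates the median of log2 total UMIs per cell differed between chief cells and the mean of the other 5 types by -0.02 ± 0.10 (SD, n = 12 plates), lower in 6 of 12 plates (exact sign-flip permutation test, two-sided, p = 0.414). The pools went opposite ways, with chief cells higher in 5 of 6 plates of pool K (0.04 ± 0.07, SD) and lower in 5 of 6 plates of pool T (-0.09 ± 0.08, SD). Fewer kinds of genes were detected in chief cells. Thinned to 15000 UMIs, the median chief cell had 3222.5 genes, and the medians of the other types and of cluster 12 were from 4059 to 4786.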

How the data were processed

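Chief cells of 2 pools (dataset 2) and chief-like cells of 2 tubes (dataset 1) were analysed from single-cell RNA sequencing of sorted gastric epithelial cells. The authors deposited UMI counts per gene and cell, made with Drop-seq tools and STAR on GRCm39 with Gencode M27 and filtered to cells with at least 2500 detected genes, and a table of clusters, cell cycle phases and the percent of mitochondrial reads per cell that the authors computed with Seurat. The submitters' processing notes also name bcl2fastq 2.20.0.422. Cells were sorted through a singlet gate that the authors checked under the microscope. A computed doublet call is not given in the sources used here, and no cell was removed. The 12 plates held 10463555 to 12745419 UMIs each in annotated cells, of which 249428 to 825286 were from chief cells. Intervals from counts cover counting error only.

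Counts were summed per type and pool, cluster and pool, or type and plate (sums of at least 2 cells). Genes passing filterByExpr were fitted with edgeR 4.0.16 (quasi-likelihood, TMM, R 4.3.3). Pool and dataset 1 contrasts were tested with Benjamini-Hochberg adjustment over all genes at 0.05. Cluster contrasts were called by a log2 fold change of at least 1 in the fit and within each pool (prior count 2) without a p. DESeq2 1.42.0 served as an alternative, and per-cell values, permutation tests and figures used Python 3.11.15. The fits were tested on simulated data.

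The text names members of the gene lists, the 12 higher and 8 lower genes with the largest fold change (at least 10 UMIs in both pools of chief cells, or of 3 other types), the 6 each way against cluster 12, and the 5 each way for the pool contrasts. Members and lists were chosen with earlier results of these data known. In dataset 2 the types of a pool came from the same mice. Deviations of the types from their means had a median correlation of 0.132 within a pool (0.0689 to 0.411, over 0.1 in 12 of 15 type pairs). In dataset 1 the corresponding median was 0.0140.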

Additional observations from a re-analysis of the deposited data

Results flagged for a closer look

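Among the plate values of the named pool genes, 4 of 34 groups of 6 plates had a value far from the other plates, where chance gives about 1 in 20. *Clu* had a lowest plate of 773 CPM in pool K. *Klk1* had a highest plate of 85.3 CPM in pool T. *Neat1* had a highest plate of 1074 CPM in pool K, and *Ugdh* a highest plate of 82.3 CPM in pool T.

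The difference between pools T and K was tested against that of the other types, and 36 genes were lower and 13 higher in chief cells (edgeR's quasi-likelihood test, adjusted p below 0.05). The named genes with a higher difference were *Cyp4f16* with 2.04 on the log2 scale, *Ugdh* with 1.44, *Smpd3* with 0.92, *Clu* with 0.84 and *Slc25a35* with 0.79. Those with a lower difference were *Slc17a9* with -1.13, *Neat1* with -1.04, *Ttll7* with -0.90, *Hsp90b1* with -0.83 and *Hyou1* with -0.81. Chief cells of the plates of a pool share 3 mice and 1 operator, and mice and operators cannot be told apart.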

How the results depend on the processing

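Against the mean of the other types, a minimum log2 fold change of 2 left 601 genes higher and 540 lower, calling by adjusted p (edgeR) gave 3371 and 3577, sums per plate gave 913 higher, and leaving out a pool, so that the rule asked for 1 pool only, gave 2039 to 2153 higher and 2322 to 2622 lower. Against cluster 12 these were 182 and 181 at a minimum of 2, 1967 and 1526 by adjusted p, and 1313 to 1399 and 1502 to 1618 without a pool. Between pools, no filter on low counts gave 86 higher genes, and leaving out each plate gave 8 to 34 higher and 14 to 34 lower. For the interaction, DESeq2 size factors gave 8 higher, DESeq2 gave 34 higher and 91 lower, no filter gave 37 higher, and leaving out plates gave 4 to 19 higher and 16 to 38 lower. The cause of these changes was not tested. The pool difference in the share of chief cells ranged from 1.25 to 2.03 percentage points without each plate, and passed without plate 5 of pool K (2.03) or plate 1 of pool T (2.02). Total UMIs per cell differed by -0.0245 on the log2 scale with medians and by 0.0302 with means, so the direction turned, and by -0.0407 to -0.0105 without each plate. With the replicate block for the pool, the comparison with the other types gave 1559 higher and 1596 lower genes, and with the block for the tube dataset 1 gave 1515 and 1402, so no count moved by over 1.5 times. Leaving out a tube of dataset 1 leaves no residual degrees of freedom, so this was not run. In dataset 1, taking the 21 cells of the deposited cluster 10, an alternative chosen after seeing the data, left both counts within 1.5 times. Depth limits genes near 3 UMIs per sum, whose folds are given as bounds.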
